A study of Mus musculus with 6 samples.

Results

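The 10 genes described here, Fabp7, Slc1a3, Slc1a2, Aldh1l1, Aqp4, S100b, Aldoc, Glul, Gja1 and Sparcl1, are widely used as marks of radial glia and astrocytes, and were chosen by their symbols out of 54446 gene identifiers. Their UMIs were counted in 6 libraries of cultured mouse glioma cells, made by 5′ RNA sequencing of single droplets. GL261, an established mouse glioma line kept in a medium with foetal calf serum that the labels call a differentiation medium, had 2 libraries. GL261-GSCs, the glioblastoma stem cells derived from that line and kept in a defined medium for such cells, had 4 libraries. No genotype change or drug is named for either group, and both descend from the same line, so that medium and derivation changed together and cannot be told apart. The labels give the tissue as brain, but the cells were cultured. They do not say whether the replicates were separate cultures, so p-values measure only the spread between these libraries, which may in part be technical.

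Radial glia are the stem cells of the developing brain, and many of them later give rise to astrocytes. Both cell types take up fatty acids with the binding protein Fabp7 and clear glutamate with the transporter Slc1a3, while mature astrocytes add Slc1a2, the main glutamate transporter of the adult forebrain. Glutamine synthetase, the product of Glul, turns the glutamate that was taken up into glutamine. Gja1 encodes the main connexin of astrocyte gap junctions and Aqp4 the water channel of their endfeet. Aldoc is the brain form of the glycolytic enzyme aldolase, and Aldh1l1 is a folate enzyme often used to mark astrocytes. S100b is a calcium-binding protein that is also found in oligodendrocyte lineage cells, and Sparcl1 (hevin) is a matrix protein that astrocytes secrete to promote synapse formation.

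All levels below are in CPM, the UMIs (counted molecules) of a gene per 1000000 UMIs in the called cells of a library, scaled by TMM. The libraries held 80899005 to 121309232 UMIs in all, and 4264 to 7275 called cells with 33320530 to 79472306 UMIs. A typical cell held 15478 or 13652 UMIs in the GL261 libraries (medians), against 15375, 11890, 10638 and 6670 in GL261-GSCs replicates 1 to 4. The median mitochondrial share was 0.953% to 1.35%. Pairs of libraries shared 32 to 59 called barcodes, where chance gives 26.1 to 57.9. Within GL261-GSCs, replicates 1 and 2 lay close to each other (root mean square difference 0.36 in log2 CPM), as did replicates 3 and 4 (0.27), and the other pairs of that group differed by 0.47 to 0.67. The GL261 libraries differed by 0.18, and libraries of different groups by 0.92 to 1.13. Because replicates 3 and 4 stand apart from replicates 1 and 2, Gja1, Aldoc, Glul and some related genes are given with and without each pair.

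Upstream sequences were read for 8 of the 10 genes from the RefSeq promoter table (GRCm38.p6), which had no entry for Sparcl1, and Aqp4 was not used. Each search covered the 250 bases before the RefSeq start site, both strands, and 8 motifs. A CCAAT box (CCAAT) was found in 5 of 8 genes (Fabp7, Slc1a3, Aldh1l1, S100b and Glul), and in 33.8% of all 32851 promoters of the table. An E-box (CANNTG) was found in 7 of 8 genes and in 66.2% of all promoters. The RBPJ core (TGGGAA) was found in 4 of 8 genes (21.6% of all), and the GC box (GGGCGG) in 4 of 8 (32.7%). A TATA box (TATAAA) was found only before Slc1a3 (12.4% of all promoters), and an AP-1 motif (TGANTCA) only before Gja1 (6.75%). The SOX core (ACAAAG, 16.5% of all) and the palindromic NFI motif (TTGGC and GCCAA with 5 bases between them, 0.0365%) were found in none of the 8. A match of letters is a description of this window and not a binding site.

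The 4 sequences below are shown because Fabp7 and Slc1a3 were both nearly absent from GL261 and present in all GL261-GSCs libraries, Aldh1l1 showed the opposite pattern, and Gja1 is one of the genes whose level differed between the pairs of GL261-GSCs replicates. They are written 5′ to 3′ on the strand of the gene and end before the first annotated exon base. Capitals mark the CCAAT box, written as CCAAT or as its reverse complement ATTGG, in the first 3 sequences, and the AP-1 motif, which overlaps an E-box, in the fourth. The Aldh1l1 start site of RefSeq lies within the longer GENCODE gene.
Fabp7 chr10:57784673-57784880 plus strand: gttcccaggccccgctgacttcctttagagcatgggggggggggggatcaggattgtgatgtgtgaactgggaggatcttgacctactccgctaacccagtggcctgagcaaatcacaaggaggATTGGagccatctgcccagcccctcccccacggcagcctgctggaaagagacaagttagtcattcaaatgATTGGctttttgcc
Slc1a3 chr15:8710808-8711057 minus strand: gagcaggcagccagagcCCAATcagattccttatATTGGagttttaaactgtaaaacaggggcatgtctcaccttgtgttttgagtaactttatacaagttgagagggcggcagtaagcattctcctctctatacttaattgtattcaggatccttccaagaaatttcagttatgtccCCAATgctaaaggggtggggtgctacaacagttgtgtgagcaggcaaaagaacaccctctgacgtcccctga
Aldh1l1 chr6:90550543-90550788 plus strand: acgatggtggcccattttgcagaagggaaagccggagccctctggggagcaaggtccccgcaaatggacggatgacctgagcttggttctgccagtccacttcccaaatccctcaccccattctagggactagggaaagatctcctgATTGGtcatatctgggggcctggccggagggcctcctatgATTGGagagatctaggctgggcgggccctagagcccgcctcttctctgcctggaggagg
Gja1 chr10:56377050-56377299 plus strand: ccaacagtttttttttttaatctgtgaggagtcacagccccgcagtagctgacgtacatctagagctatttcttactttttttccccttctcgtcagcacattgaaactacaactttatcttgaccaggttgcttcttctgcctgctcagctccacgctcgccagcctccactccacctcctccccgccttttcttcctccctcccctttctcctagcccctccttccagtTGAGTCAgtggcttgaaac

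The level of most of these genes differed between the groups, but not in 1 direction. Of the 10 genes, 8 passed the filter on low counts and were tested, and 7 of them were called by edgeR's quasi-likelihood test (threshold 0.05 after Benjamini-Hochberg adjustment over 18439 genes), 5 higher and 2 lower in GL261-GSCs. Over all genes tested the same rule called 29.9%, of which 15.8% of genes were higher and 14.1% lower (2920 and 2594 genes). With library size scaling in place of TMM the split over all genes was 3491 higher and 2034 lower, and the 7 calls among the 10 genes kept their directions. Fabp7, Slc1a3, S100b, Aldoc and Sparcl1 were higher, Glul and Aldh1l1 were lower, and Gja1 was not called. Slc1a2 was too low to be tested, and Aqp4 was not detected. For none of the 8 genes tested did the levels of the groups overlap, with 6 above and 2 below in GL261-GSCs, and the same held for 56.7% of all genes tested (28.7% above and 28.0% below). The median log2 fold change of the 8 genes was 2.55, and that of all genes tested was 0.04. The genes were chosen with earlier results of these data known, so these contrasts with all genes may in part come from the choice. Without GL261 replicate 1, or without GL261 replicate 2, 4 genes were called, 3 higher and 1 lower, and 1972 or 1817 of all genes. These sums over cells cannot tell more cells that express a gene from more RNA of it per cell, and the shares of cells are given further on.

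**Figure D1:**
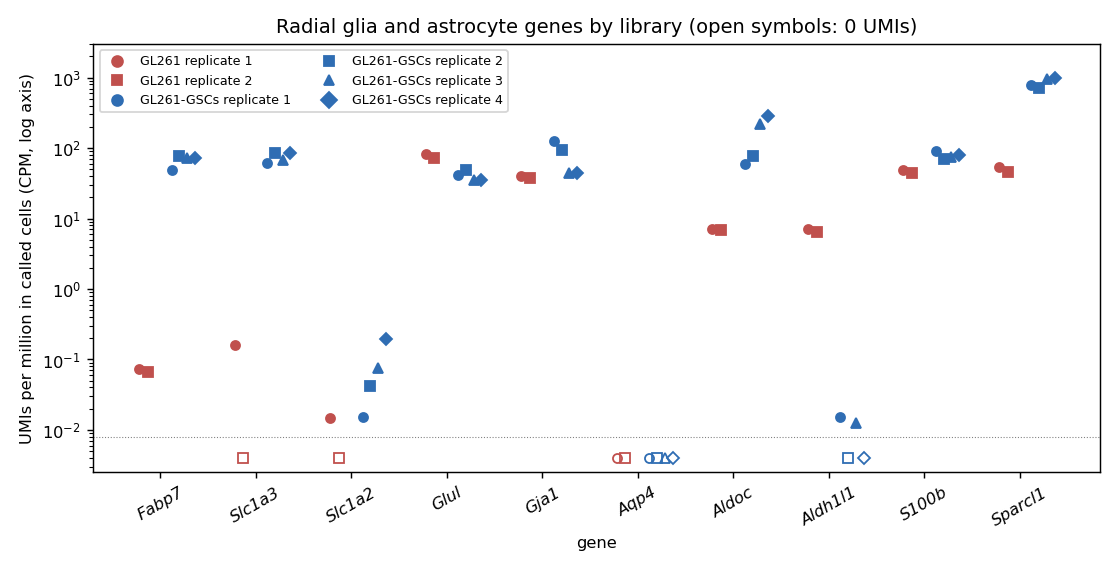
Level of each of the 10 genes (CPM, log axis, with libraries at 0 UMIs drawn as open symbols below the dotted line) in the 2 GL261 and 4 GL261-GSCs libraries, 1 point per library. Fabp7 and Slc1a3 lie below 0.2 CPM in GL261 and at 49.6 to 85.7 CPM in GL261-GSCs, while Aldh1l1 lies at 6.49 and 7.11 CPM in GL261 and near 0 in GL261-GSCs.

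Fabp7, the fatty acid binding protein of radial glia (chr10:57784881-57788450, plus strand, GRCm38), had 5 and 4 UMIs in the cells of the GL261 libraries, against 3274, 5553, 5762 and 2602 in GL261-GSCs replicates 1 to 4. Its levels were 0.0740 and 0.0662 CPM in GL261, and 49.6, 76.6, 72.0 and 71.5 CPM in GL261-GSCs. The GL261 libraries were nearly devoid of it, and all 4 GL261-GSCs libraries held a similar level, lowest in replicate 1. The log2 fold change was 9.87 (SE 0.35, adjusted p = 2.99e-05, edgeR, n = 2 and 4), and stayed between 9.74 and 10.36 over 18 alternative settings, with the call kept in each. The GL261 side of this fold rested on 9 UMIs in all, so that its size is less certain than its direction.

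Slc1a3, the glutamate transporter shared by radial glia and astrocytes (chr15:8634124-8710764, minus strand), had 11 UMIs in GL261 replicate 1 and 0 in replicate 2, against 4033, 6213, 5448 and 3059 UMIs in GL261-GSCs replicates 1 to 4. This was 0.163 and 0 CPM in GL261, against 61.1, 85.7, 68.1 and 84.0 in GL261-GSCs. As with Fabp7, every GL261-GSCs library lay far above both GL261 libraries. On the log2 scale the fold change was 9.75 (SE 0.71, adjusted p = 0.000253, edgeR). Its size rested on the few UMIs of 1 library: it was 15.20 without GL261 replicate 1, where the only GL261 library left held no UMI, and 8.82 without GL261 replicate 2, and the gene was called in both cases.

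Slc1a2, the transporter of mature astrocytes (chr2:102658659-102790784, plus strand), had 1 and 0 UMIs in the GL261 libraries and 1, 3, 6 and 7 in GL261-GSCs replicates 1 to 4. It was not tested. The ratio of its pooled levels, GL261-GSCs over GL261, was 8.53 with a 95% counting interval of 1.34 to 357, which covers counting error only. Its level stayed at 0.192 CPM or below in every library, highest in GL261-GSCs replicate 4.

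Glul, which encodes glutamine synthetase (chr1:153899944-153909723, plus strand), was lower in GL261-GSCs. Its levels were 81.5 and 71.4 CPM in GL261, and 41.9, 49.0, 34.7 and 34.7 CPM in GL261-GSCs replicates 1 to 4. The groups did not overlap, and within GL261-GSCs replicates 1 and 2 lay above replicates 3 and 4. Its log2 fold change was −0.93 (SE 0.17, adjusted p = 0.00846, edgeR). The call was lost without GL261 replicate 1 (adjusted p = 0.0888) and without GL261 replicate 2 (adjusted p = 0.0552). It was called without GL261-GSCs replicates 3 and 4 (−0.74) and without replicates 1 and 2 (−1.12). Of its exonic bases, 2.80% are shared on the same strand with the microRNA gene Mir8114.

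Gja1, which encodes the main astrocyte connexin (chr10:56377330-56402513, plus strand), stood at 39.5 and 38.2 CPM in GL261, and at 127, 93.5, 43.9 and 44.8 CPM in GL261-GSCs replicates 1 to 4. Replicates 1 and 2 lay well above GL261, and replicates 3 and 4 only just above it. The mean was 77.2 ± 40.4 CPM (SD, n = 4) in GL261-GSCs and 38.8 ± 0.919 CPM (SD, n = 2) in GL261. The log2 fold change of 0.99 (SE 0.47) did not pass the test (adjusted p = 0.155, edgeR). In an alternative chosen after seeing the data, it was 1.51 and called without GL261-GSCs replicates 3 and 4 (adjusted p = 0.00297), and 0.21 and not called without replicates 1 and 2 (adjusted p = 0.128).

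Aqp4, the water channel of astrocyte endfeet (chr18:15389496-15410982, minus strand), had 0 UMIs in the cells of every library and in all other barcodes. Among the 385180735 UMIs of all called cells, a count of 0 allows a level of up to 0.00784 CPM over the 6 libraries together (3 UMIs, counting error only). In the GENCODE M21 annotation no other gene shares its exonic bases on the same strand. Which annotation release the deposited counts rest on is not stated, so a gene without RNA and a gene that was not counted cannot be told apart.

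Aldoc, the brain aldolase (chr11:78322968-78327781, plus strand), stood at 7.20 and 6.79 CPM in GL261, and at 58.6, 76.1, 218 and 289 CPM in GL261-GSCs replicates 1 to 4. All GL261-GSCs libraries lay above GL261, and replicates 3 and 4 lay above replicates 1 and 2, the reverse of the order of Gja1. The log2 fold change was 4.52 (SE 0.82, adjusted p = 0.00764, edgeR). It was 3.27 without GL261-GSCs replicates 3 and 4 and 5.20 without replicates 1 and 2, and was called in both. The call was lost without GL261 replicate 1 (adjusted p = 0.0726) and without GL261 replicate 2 (adjusted p = 0.0788). Median UMIs per cell moved with this split too, since replicates 3 and 4 were the shallowest libraries per cell, and the part of depth in the Aldoc and Gja1 levels was not tested.

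Aldh1l1, the folate enzyme used to mark astrocytes (chr6:90486427-90600203, plus strand), was the reverse of Fabp7. It had 480 and 392 UMIs in GL261, or 7.11 and 6.49 CPM, and 1, 0, 1 and 0 UMIs in GL261-GSCs replicates 1 to 4. Its pooled level was 869-fold lower in GL261-GSCs, with a 95% counting interval of 240 to 7184, and it was called (adjusted p = 9.66e-05, edgeR, n = 2 and 4). It was called in each of the 18 alternative settings. Of its exonic bases, 2.33% are shared on the same strand with the predicted gene Gm45901.

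S100b, the calcium-binding protein (chr10:76253853-76261159, plus strand), stood at 49.1 and 44.8 CPM in GL261, and at 89.5, 69.9, 73.8 and 80.5 CPM in GL261-GSCs replicates 1 to 4. Every GL261-GSCs library lay above both GL261 libraries, by a smaller margin than for the other genes called higher. Its log2 fold change was 0.74 (SE 0.14, adjusted p = 0.0102, edgeR). The call was lost without GL261 replicate 1 (adjusted p = 0.0823) and without GL261 replicate 2 (adjusted p = 0.126).

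Sparcl1, the secreted matrix protein (chr5:104079111-104113733, minus strand), stood at 54.4 and 45.3 CPM in GL261, and at 793, 716, 944 and 977 CPM in GL261-GSCs replicates 1 to 4. Unlike Aldoc and Gja1, it varied little between the pairs of GL261-GSCs libraries. Its log2 fold change was 4.10 (SE 0.22, adjusted p = 9.58e-05, edgeR), and it was called in each of the 18 alternative settings. The most UMIs of Sparcl1 in a single cell were 13 and 7 in the GL261 libraries, and 76, 164, 93 and 101 in GL261-GSCs replicates 1 to 4.

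To compare how many cells held these transcripts, every cell was reduced to 2000 UMIs drawn at random (thinned), so that deep and shallow cells had the same chance of showing a gene. All called cells were deep enough to be used. Shares for single libraries have exact binomial (Clopper-Pearson) 95% intervals that cover counting error only, and where no cell held a UMI the upper limit given is the share of 3 cells. With 2 and 4 libraries the exact permutation test (2-sided) cannot give a p under 0.133, and it gave that value for 8 of the 9 genes compared (0.15 after Benjamini-Hochberg adjustment over the 9), so that none of these differences could pass 0.05.

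Sparcl1 was found in most GL261-GSCs cells, at 75.7%, 73.9%, 80.4% and 82.0% of thinned cells in replicates 1 to 4, against 11.0% and 7.98% in GL261. Without thinning, 96.2% to 99.3% of GL261-GSCs cells and 45.0% and 36.2% of GL261 cells held a Sparcl1 UMI. The cells with the most Sparcl1 did not hold much of the total: the top 1% of cells held 3.66% to 4.71% of its UMIs in GL261-GSCs libraries. Slc1a3 was found in 13.4%, 17.0%, 14.8% and 19.1% of thinned GL261-GSCs cells, and in 43.7% to 58.8% without thinning. In GL261 replicate 1, 2 of 4808 thinned cells held an Slc1a3 UMI (0.0416%, interval 0.00504% to 0.150%), and in replicate 2, 0 of 5002 did, which allows a share of up to 0.0600%. Fabp7 was found in 8.33%, 13.7%, 12.6% and 12.4% of thinned GL261-GSCs cells, and in 0.0208% and 0.0400% of thinned GL261 cells. Without thinning its shares were 33.1% to 49.4% in GL261-GSCs, and 0.0832% and 0.0600% in GL261. The top 1% of cells held 7.83% to 10.4% of the Fabp7 UMIs and 6.57% to 7.14% of the Slc1a3 UMIs of GL261-GSCs libraries.

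Aldoc was found in 10.7%, 13.9%, 32.7% and 42.2% of thinned GL261-GSCs cells and in 1.66% and 1.20% of GL261 cells. Its shares separated replicates 3 and 4 from replicates 1 and 2 as its levels did. Gja1 was found in 23.1%, 17.1%, 8.71% and 9.49% of thinned GL261-GSCs cells and in 6.86% and 6.38% of GL261 cells. Its shares without thinning were 73.6%, 55.5%, 30.7% and 22.5% in GL261-GSCs replicates 1 to 4 and 34.3% and 31.0% in GL261, so that only after thinning did all GL261-GSCs libraries lie above GL261. The unthinned S100b shares overlapped between the groups as well, at 60.9%, 46.1%, 43.8% and 36.3% against 39.8% and 34.4%, while the thinned shares of 12.8% to 16.6% lay above 9.11% and 7.98%. Glul was found in 8.68%, 9.91%, 7.15% and 6.83% of thinned GL261-GSCs cells, below the 13.6% and 12.0% of GL261. Aldh1l1 was found in 1.04% and 1.02% of thinned GL261 cells, and in 0 GL261-GSCs cells, which allows shares of up to 0.0412% to 0.0704% in the 4 libraries.

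**Figure D2:**
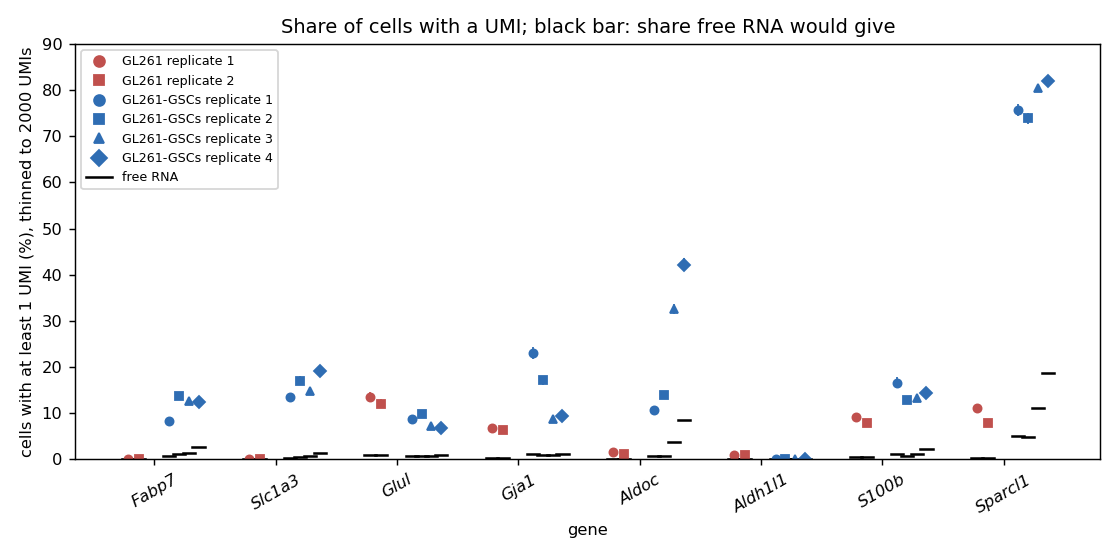
Share of called cells with a UMI of 8 of the 10 genes (Slc1a2 and Aqp4 left out) after thinning every cell to 2000 UMIs (percent), 1 point per library with its exact binomial 95% interval, and as a black bar the share that free RNA at the level of the barcodes with 100 to under 1000 UMIs would give. Sparcl1 was found in 73.9% to 82.0% of GL261-GSCs cells, where free RNA would give 4.84% to 18.8%.

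Droplets also hold free RNA. Its makeup was read from small barcodes, those that held 100 to under 1000 UMIs (medians of 472 to 679), and a cell was taken to hold that median number of free UMIs. Both steps are assumptions, since the labels do not say what these barcodes hold and the median depends on the window chosen. Free RNA would then give a Fabp7 UMI to 0.741%, 1.08%, 1.37% and 2.63% of thinned cells in GL261-GSCs replicates 1 to 4, below each library's observed share. For Slc1a3 it would give 0.325% to 1.36%, for Gja1 0.881% to 1.24%, for Glul 0.625% to 1.01%, and for S100b 0.748% to 2.15% in GL261-GSCs, all below the observed shares. For Aldoc it would give 0.713%, 0.815%, 3.80% and 8.53%, and for Sparcl1 5.12%, 4.84%, 11.1% and 18.8% in replicates 1 to 4. In GL261 it would give 0.917% and 0.846% for Glul and 0.0574% and 0.0547% for Aldh1l1, again below the observed shares. Of the 7 genes given here for GL261-GSCs, all but Gja1 had the highest such share in replicate 4. That library had the fewest of its UMIs in cells (41.2%) and the shallowest cells (median 6670 UMIs), and the estimate is scaled by cell depth. Without thinning, the share was highest in replicate 4 only for Fabp7, Slc1a3, Aldoc and Sparcl1. For Glul it was then lowest there (2.55%), and for S100b highest in replicate 1 (6.94%, against 5.42% in replicate 4). The shares of Slc1a2 in GL261-GSCs, 0% to 0.0665% of thinned cells, were too low to be read.

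Fabp7 and Slc1a3 differed in how their UMIs were spread between cells and small barcodes. Fabp7 stood at 65.8, 110, 104 and 111 CPM (here without TMM scaling) in the small barcodes of GL261-GSCs replicates 1 to 4, above its level in cells in each library. Slc1a3 stood at 28.8, 48.9, 50.7 and 57.0 CPM there, below its level in cells in each library. Sparcl1 was also lower in the small barcodes (469, 505, 901 and 898 CPM), while Aldoc was higher (63.4, 82.8, 292 and 376). The labels name both cells and nuclei as loaded material and a lysis step with a detergent, so what the small barcodes hold is not given.

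The few Fabp7 and Slc1a3 UMIs of GL261 were scattered. In GL261 replicate 1 the 11 Slc1a3 UMIs lay in 11 cells and the 5 Fabp7 UMIs in 4 cells, and no cell held both. None of these cells was among the 60 cells of that library with a UMI of Olig2. That oligodendrocyte lineage factor was abundant in GL261-GSCs. Among 4808 cells, sets of cells this small would seldom overlap under independent detection. The lack of overlap thus carries no weight, and the source of these UMIs was not tested.

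Cells of each library were also set apart by 8 genes of the G2 and M phases of the cell cycle. Cells with at least 3 UMIs of these genes after thinning were compared with cells with 0, as a description within libraries with no test. Between 1837 and 3792 cells of a library had at least 3 and 744 to 1480 had 0, and 1164 to 2003 cells with 1 or 2 were left out. The cells with G2/M genes were the deeper ones by median UMIs, other than in GL261-GSCs replicate 4 (6598 against 7514.5), and levels were taken relative to all UMIs of the cells.

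Aldoc was lower in cells with G2/M genes in every library. Its ratio, cells with over cells without G2/M genes, was 0.35 and 0.47 in GL261, against 0.76, 0.83, 0.65 and 0.56 in GL261-GSCs replicates 1 to 4. S100b was lower in them too, with ratios of 0.70 and 0.77 in GL261, against 0.69, 0.57, 0.47 and 0.50 in GL261-GSCs. Gja1 showed the opposite order in GL261, at 1.95 and 1.90, and ratios closer to 1 in GL261-GSCs, at 1.18, 1.11, 1.21 and 0.89. Fabp7 had ratios of 0.86, 0.90, 0.76 and 0.97 in GL261-GSCs, and Slc1a3 of 1.07, 0.99, 1.03 and 1.13. Sparcl1 lay between 0.82 and 1.04 in all 6 libraries, and Glul between 0.77 and 1.03. Aldh1l1 was lower in GL261 cells with G2/M genes, with ratios of 0.79 and 0.51. The summed level of the 8 genes overlapped between the groups, at 2306 and 2792 CPM in GL261 and 2003 to 2571 CPM in GL261-GSCs.

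**Figure D3:**
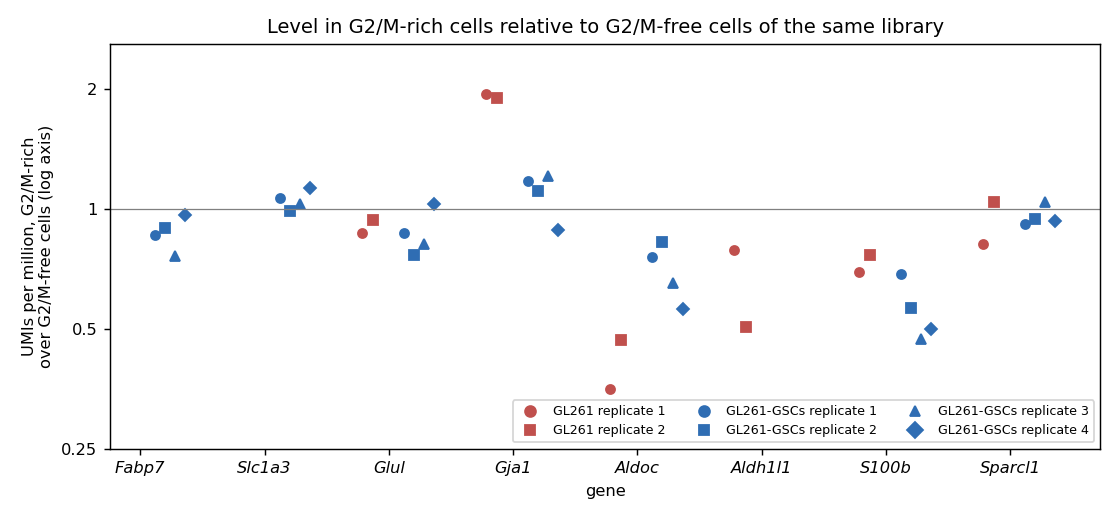
Ratio of each gene's level (CPM, log axis) in cells with at least 3 UMIs of 8 G2/M genes to its level in cells with 0, with cells classed after thinning to 2000 UMIs, 1 point per library. Aldoc and S100b lie below 1 in all 6 libraries, and Gja1 lies near 1.9 in both GL261 libraries.

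Within GL261-GSCs, detection of the genes in the same cells was set against what independent detection would give. For each pair, the thinned cells holding both genes were counted and set against the product of their shares, library by library. Slc1a3 and Gja1, the glutamate transporter and the connexin, were found together in 617 cells where 478 were expected, a ratio of 1.29 that lay between 1.26 and 1.34 in the 4 libraries. Fabp7 was found with S100b at a ratio of 1.23 (1.04 to 1.44 over libraries) and with Aldoc at 1.21 (1.10 to 1.32). S100b was found with Aldoc at 1.20 (1.07 to 1.28) and with Glul at 1.26 (1.14 to 1.49). Gja1 had ratios below 1 with Fabp7 (0.80, between 0.72 and 0.84), with S100b (0.79, between 0.55 and 0.94) and with Aldoc (0.88, between 0.84 and 0.94), in each of the 4 libraries.

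Fabp7 and Slc1a3, which had like levels over the libraries, had a ratio of 0.98 (418 cells where 427 were expected, between 0.84 and 1.03 over libraries). Among cells with 0 UMIs of the G2/M genes, the ratio was 1.20 for Slc1a3 with Gja1, 1.25 for Fabp7 with S100b, 1.14 for Fabp7 with Aldoc, 1.09 for S100b with Aldoc, and 1.23 for S100b with Glul. It was 0.82 there for Gja1 with Fabp7, 0.79 with S100b and 0.82 with Aldoc. Summed over the 4 libraries, these 8 pairs kept their side of 1, while Fabp7 with Slc1a3 was at 1.02 there. Some did not in single libraries. S100b with Aldoc fell below expectation in replicate 1 (13 cells against 16.7) and replicate 4 (121 against 125), and Slc1a3 with Gja1 in replicate 2 (24 against 24.6). Gja1 rose above it with Fabp7 in replicate 2 (21 against 19.35) and with S100b in replicate 1 (36 against 35.3). In the GL261 libraries, S100b was found with Glul at a ratio of 1.27 (1.35 in replicate 1 and 1.17 in replicate 2). With Sparcl1 it was at 1.51 in replicate 1 and at 1.07 in replicate 2, so that this pair lay well above 1 in 1 library only. These ratios come from sparse counts of cells that share a library, and they have no test.

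**Figure D4:**
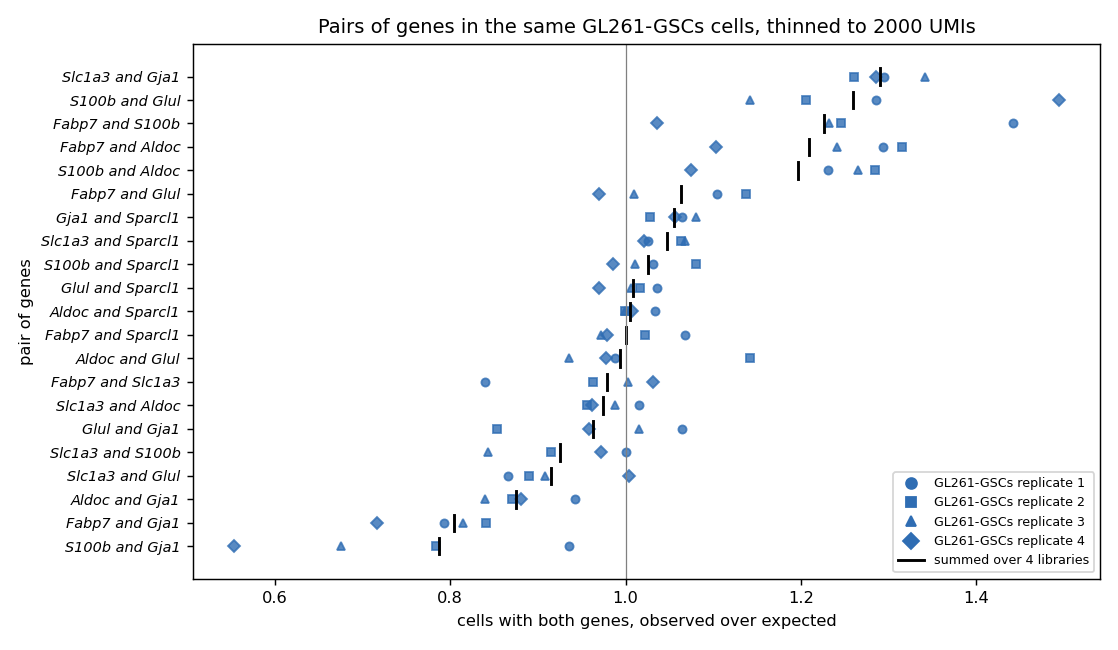
Number of thinned cells holding both genes of a pair, divided by the number expected from the separate shares of the 2 genes, in the GL261-GSCs libraries, 1 point per library and a black bar for the 4 libraries summed. Slc1a3 with Gja1 lies at 1.26 to 1.34, and Fabp7 with Gja1 at 0.72 to 0.84.

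Likeness over the 6 libraries was measured as the root mean square difference of log2(CPM + 1) after subtracting each gene's mean, among the 18439 genes tested. The genes most like Fabp7 were Sapcd1 (0.14), Slc1a3 (0.15) and Mtss1 (0.20), and no other gene lay within 0.25. Those most like Slc1a3 were Fabp7 (0.15), Sapcd1 (0.22) and Mtss1 (0.24). Those most like Aldoc were Cdh18 (0.13), Dcc (0.17) and Myt1 (0.18). Gja1 was most like Arsj (0.12), E030030I06Rik (0.15) and Pou3f3 (0.15), with 54 genes within 0.25 of it. Glul had Nat6, Mamld1 and Amigo1 nearest (all 0.07), but 1181 genes lay within 0.25 of it, so that its pattern was shared by many.

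Other genes of astrocytes and radial glia were followed as lists. Of 30 other astrocyte genes, 23 were tested, and 11 were higher and 5 lower in GL261-GSCs, while Gjb6 and Mlc1 had no UMI in the called cells of any library. The median log2 fold change of those tested was 0.90. Agt (angiotensinogen) had 1 UMI in GL261 against 399 in GL261-GSCs, a ratio of 200 with a counting interval of 35.7 to 7930. Gpr37l1, a receptor of astrocytes and oligodendrocyte precursors, was called (5.24 on the log2 scale, SE 1.29, edgeR adjusted p = 0.0235), and Slc25a18, a mitochondrial glutamate carrier, had 2 and 120 UMIs, a ratio of 30.1 (8.16 to 252). Of those 120 UMIs, 81 lay in GL261-GSCs replicate 2, and the ratio was 13.7 (3.54 to 117) without it. Both GL261 UMIs of Slc25a18 lay in GL261 replicate 2, so that it has no measured fold without that library. Gfap, the astrocyte filament, was lower: it had 165 UMIs in GL261 against 3 in GL261-GSCs, a level 110-fold lower (36.8 to 537). Of those 3 UMIs, 2 lay in GL261-GSCs replicate 4, and the fitted log2 fold change went from −6.50 to −7.64 without that library. With 3 or fewer UMIs in the group, neither fitted size is a measured fold. The growth factor receptor Fgfr3 had a log2 fold change of −6.22 (mean 44.5 CPM in GL261 against 0.633 CPM in GL261-GSCs, the order used for all such pairs here) and Pla2g7 one of −5.81 (1.20 against 0.0176 CPM), both called. Without GL261 replicate 1, 7 genes of the list were called, and without GL261 replicate 2, 8 were.

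Of 12 other radial glia genes, 11 were tested, with 4 higher, 3 lower and a median of 0.20. The receptor phosphatase Ptprz1 was higher by 11.77 on the log2 scale (0.0749 against 277 CPM), and its ligand Ptn by 7.08 (1.59 against 215 CPM), and Hopx by 4.18 (0.0536 against 1.02 CPM). The adhesion molecule Cdh2 fell by 3.85 (765 against 53.2 CPM), and the filament genes Vim and Nes fell by 1.66 and 1.52. Of 13 transcription factors of these cells, 11 were tested, with 2 higher (Hes5 by 5.91 and Lhx2 by 3.55) and 4 lower, among them Id3 (−4.52), Id1 (−4.24) and Hes1 (−4.17). The 2 Notch-linked Hes genes thus moved in opposite directions. Sox9 and Emx2 had no UMI in the called cells of any library. Emx2 had 1 UMI in all barcodes and Sox9 had 0, so that the limit given for Aqp4 holds for Sox9 too. Without GL261 replicate 2, 3 of these factors were called, all lower.

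**Figure D5:**
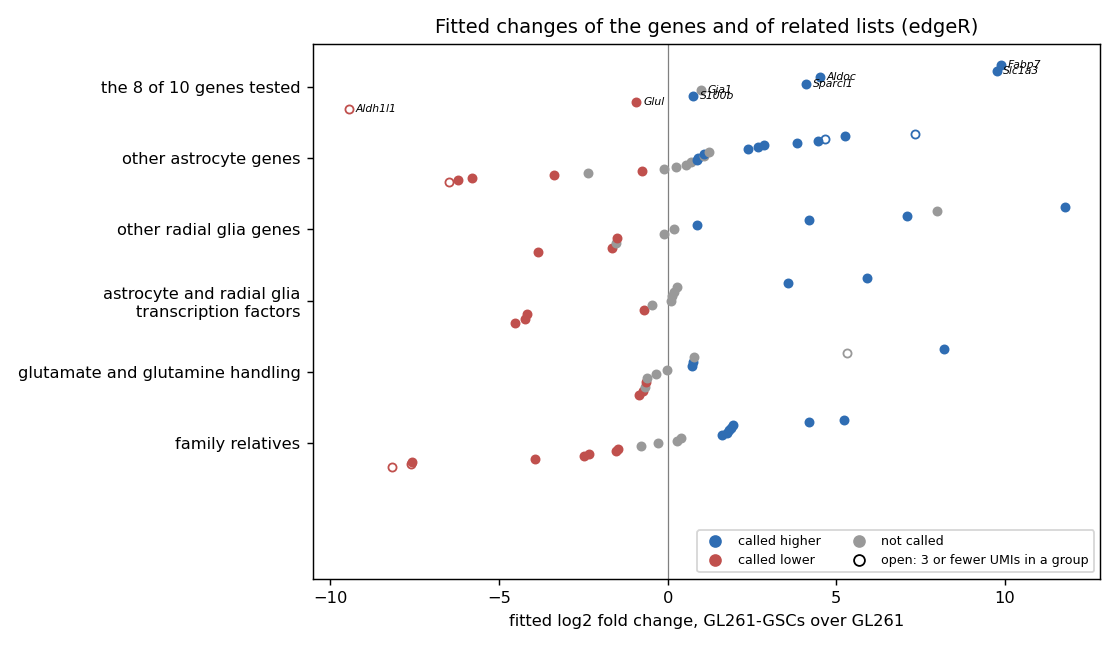
Fitted log2 fold change (GL261-GSCs over GL261, edgeR) of every tested gene of the 10 and of 5 related lists, 1 point per gene, coloured by call, with open points for genes with 3 or fewer UMIs in a group, whose fitted size is not a measured fold. The lists hold genes called in both directions, with medians from −0.29 to 2.55.

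Genes that handle glutamate and glutamine were called in both directions. Of 14 such genes, 12 were tested, with 3 higher, 3 lower and a median of −0.19. Slc38a3, a glutamine transporter of astrocytes, was higher by 8.20 on the log2 scale (0.0527 against 16.5 CPM), and the related Slc38a2 and Slc38a1 by 0.74 and 0.73. Glud1, which turns glutamate into oxoglutarate, fell by 0.86, the aminotransferase Got1 by 0.72 and the glutamine importer Slc1a5 by 0.65, all called. Slc7a11, the cystine and glutamate exchanger (−0.61, adjusted p = 0.297, edgeR), did not pass the test. Without either GL261 library in turn, 1 gene of this list was called, and without GL261-GSCs replicates 3 and 4, 10 were. All genes called numbered 6985 of 17540 in that last fit, against 5514 of 18439 with all libraries.

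Close relatives of the 10 genes were also called in both directions. Of 26 relatives, 19 were tested, with 7 higher, 8 lower and a median of −0.29. Fabp4 was higher by 4.20 (4 against 150 UMIs) and Fabp5, the skin fatty acid binding protein, by 1.93 (111 against 420 CPM, adjusted p = 0.0252, edgeR). The ubiquitous aldolase gene Aldoa did not pass the test (0.26, adjusted p = 0.704, edgeR), and its value is uncertain because 2 identifiers carry that symbol. Sparc, the relative of Sparcl1, fell by 2.48 (2015 against 361 CPM), while the related Smoc1 was higher by 5.22. S100a4 fell by 7.57 (109 against 0.570 CPM), an uncertain value because 51.7% of its exonic bases are shared on the same strand with the predicted gene Gm42674. The water channel Aqp1 had 214 UMIs in GL261 against 1 in GL261-GSCs, a level 426-fold lower (75.7 to 16918). Among the other connexins, Gjc3, known from oligodendrocytes, was higher by 1.61 (82.7 against 253 CPM), Gjc1 fell by 1.46, and Gja4 had 48 UMIs in GL261 against 0 in GL261-GSCs, at least 31.9-fold lower against a floor of 3 UMIs over the group. Without GL261 replicate 1, 9 relatives were called, and without GL261 replicate 2, 8 were.

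Several of these related genes differed between GL261-GSCs replicates 1 and 2 and replicates 3 and 4, in alternatives chosen after seeing the data. Gpr37l1 stood at 2.21, 13.7, 22.7 and 47.2 CPM in GL261-GSCs replicates 1 to 4, and its log2 fold change was 3.82 without replicates 3 and 4 and 5.95 without replicates 1 and 2. The Notch target Hes5 stood at 0.227, 1.23, 3.81 and 4.64 CPM, with log2 fold changes of 4.17 and 6.70 in the same order. Ptn (5.99 and 7.73), Fabp4 (2.95 and 4.90) and Fabp5 (1.17 and 2.44) were likewise closer to GL261 in replicates 1 and 2. These 5 genes were called in both fits. For Gpr37l1, Hes5 and Ptn, replicate 1 also stood below replicate 2, by a larger fold than replicate 2 stood below replicate 3. Ptn was at 39.0, 161, 335 and 326 CPM in GL261-GSCs replicates 1 to 4. Aldoa changed its direction, at −0.57 without replicates 3 and 4 (adjusted p = 0.0202, edgeR) and 0.81 without replicates 1 and 2 (adjusted p = 0.00685). Slc7a11 was called without replicates 1 and 2 (−1.20, adjusted p = 0.00161, edgeR). Ptprz1 (10.99 and 12.28) and Id3 (−3.98 and −5.35) lay farther from GL261 in replicates 3 and 4, and were called in both fits. Other genes went the other way, among them Id1 (−4.64 and −3.89), Fgfr3 (−6.83 and −5.88) and Hopx (4.43 and 3.91), also called in both. Some calls close to the threshold were lost when 1 library was left out. Without GL261-GSCs replicate 3, where 4063 of all genes were called, these were Gpr37l1 (5.22), Slc25a18 (4.86), Hes5 (5.62), Got1 (−0.69), Slc1a5 (−0.66) and Fabp5 (1.78), with log2 fold changes near those from all libraries and adjusted p of 0.0501 to 0.0697 (edgeR). Without replicate 4 it was Slc25a18 (4.86, adjusted p = 0.0590, edgeR), and without replicate 2 it was Glud1 (−0.76, by an adjusted p just above 0.05).

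The size of some of these changes rested on 1 library, and those given next stayed called without it. Ptprz1 had 9 and 1 UMIs in GL261 replicates 1 and 2, and its fitted log2 fold change was 13.86 without GL261 replicate 1. Slc38a3 had 6 and 1 UMIs there and went to 9.79, and Hopx had 5 and 2 and went to 4.86. With 3 or fewer GL261 UMIs left, these fitted sizes are not measured folds. Agt, with its 1 GL261 UMI in replicate 1, has no measured fold without that library. Smoc1 stood at 7.98 and 2.62 CPM in the GL261 libraries, with 6.23 without replicate 1 and 4.63 without replicate 2. Fgfr3 stood at 1.43 CPM in GL261-GSCs replicate 4 and at 0.258 to 0.510 CPM in the others of that group, and was at −6.88 without replicate 4. Gpr37l1 went to 4.53 without replicate 4. The single Aqp1 UMI of GL261-GSCs lay in replicate 1. Fabp4, Fabp5, Gja4, Gjc1, Glud1, Got1, Gpr37l1, Hes5, Slc1a5, Slc25a18, Slc38a1 and Slc38a2 lost their calls without either GL261 library in turn, Ptn without replicate 1 only, and Lhx2 and Nes without replicate 2 only.

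Markers of other cell types moved with the groups as well, and their part in the results above was not tested. Of 6 oligodendrocyte precursor markers, 4 were higher in GL261-GSCs, and their summed level was 505 and 563 CPM in GL261 and 1298 to 2310 CPM in GL261-GSCs. The mean level of Olig2 was 0.467 ± 0.637 CPM (SD, n = 2) in GL261, against 557 ± 185 CPM (SD, n = 4) in GL261-GSCs. Its GL261 mean rested on replicate 1, with 62 UMIs (0.918 CPM) against 1 UMI (0.0166 CPM) in replicate 2. The mean level of Sox10 was 344 ± 19.5 and 343 ± 34.0 CPM. Among thinned GL261-GSCs cells with a Fabp7 UMI, 48.5%, 56.9%, 77.4% and 70.3% held an Olig2 UMI in replicates 1 to 4. Among thinned cells without a Fabp7 UMI, 52.5%, 53.0%, 74.8% and 67.6% did. For Sox10 the share among cells with Fabp7 over that among cells without it was 1.02 to 1.05. These shares are a description with no test. S100b and Gpr37l1 are also expressed by oligodendrocyte precursors, and these 2 are not a full list of such genes. Oligodendrocyte markers summed to 201 and 298 CPM in GL261 and 314 to 427 CPM in GL261-GSCs, with 3 of 5 higher and 1 lower. Neuron markers (85.0 and 92.3 against 37.2 to 82.6 CPM, Rbfox3 at 0), fibroblast and mural markers (258 and 292 against 38.2 to 228 CPM) and myeloid markers (12.9 and 13 against 0.192 to 0.349 CPM, C1qa at 0) had lower sums in GL261-GSCs, but not all their genes moved that way. Of the 5 neuron markers, Syt1 was called higher (3 against 7942 UMIs, a ratio of 1329 with a counting interval of 455 to 6445), at 1.15, 12.4, 51.5 and 78.1 CPM in GL261-GSCs replicates 1 to 4, so that most of its UMIs lay in replicates 3 and 4. Tubb3, at 88.6 against 19.8 CPM, did not pass the test (adjusted p = 0.117, edgeR). Of the 5 fibroblast and mural markers, Col3a1 was higher by 4.71 on the log2 scale (5.51 against 144 CPM), and Col1a1 (−3.93) and Pdgfrb (−5.40) were lower. Of the 5 myeloid markers, Csf1r fell by 5.79 and made up nearly all of the sum. It had 1691 UMIs in the called cells of all libraries, against 17 of Cx3cr1, 9 of Aif1 and 6 of Ptprc. Endothelium markers stayed at 1.61 CPM or below, with Cldn5 at 0, but Cdh5 was called lower (49 against 1 UMI, 97.6-fold lower, with 16.7 to 3934 as the counting interval). Ependyma markers stayed at 0.429 CPM or below.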

How the data were processed

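For every barcode and gene, the authors deposited raw UMI counts, written without barcode filtering by Cell Ranger 4 per the file headers, and the build is mm10 per the submitters' processing notes. Their annotation release is not given in the sources. Groups and replicate numbers come from the sample titles. Coordinates come from GENCODE M21 (GRCm38), which held 99.9% of the identifiers, and upstream sequences from RefSeq.

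Barcodes were called cells from 10% of a reference count, the 99th percentile over the 3000 barcodes with most UMIs, with at least 500 genes and under 10% mitochondrial UMIs. Doublets were not removed. Counts were summed per library and tested with the edgeR 4.0.16 quasi-likelihood test (TMM, filterByExpr, no covariates, 2-sided) in R 4.3.3, after it was tested on simulated data. SE is the absolute log2 fold change over the square root of F. Genes with 0 to 3 UMIs in a group have a bound or a counting ratio at 95%. Exact permutation tests used scipy 1.17.1.

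All 10 genes are named. Of each list up to 3 called genes with the largest changes in each direction are named, with preset additions, of which 1 is not reported here, and any marker may be named. The genes and lists were chosen with earlier results of these data known. Alternatives were DESeq2 1.42.0, limma-voom (3.58.1), library size scaling, no filter, a replicate block, other cell calling, other thinning and left-out libraries.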

Additional observations from a re-analysis of the deposited data

Results flagged for a closer look

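In all, 60 sets of values over the 4 GL261-GSCs libraries (gene levels, shares of cells, G2/M ratios and library measures) were searched for a library far from the others, by Dixon's ratio of the gap to the whole range, and chance would give about 3 such cases. It gave 2. Slc25a18, a mitochondrial glutamate carrier, stood at 1.12 CPM in GL261-GSCs replicate 2, and at 0.121 to 0.275 CPM in the other libraries of that group. The water channel gene Aqp1 stood at 0.0152 CPM in GL261-GSCs replicate 1, which was 1 UMI, and at 0 in the others. None of the 10 radial glia and astrocyte genes was among them.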

How the results depend on the processing

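No direction of the 8 tested genes reversed in 18 alternatives. Without 1 GL261 library the counts of calls fell most: all genes called numbered 1817 to 6193 with 1 library left out (843 to 3372 higher and 974 to 2821 lower), and radial glia and astrocyte genes 4 to 7 (3 to 5 higher and 1 to 2 lower). The lists then held 7 to 17 calls for astrocyte genes, 3 to 6 for transcription factors, 1 to 7 for glutamate handling and 8 to 15 for relatives. Without GL261-GSCs replicates 1 and 2, 9881 genes were called (5171 higher and 4710 lower), and without replicates 3 and 4, 10 glutamate genes, both chosen after seeing the data. Where a single GL261 library remained, its spread was taken from the other group. Fewer samples entered these fits. With library size scaling, the median over all genes was 0.18, against 0.04 (log2 fold change), and 3491 genes were higher and 2034 lower, against 2920 and 2594.

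The replicate numbers were not said to pair libraries. Deviations of same-numbered libraries from the mean of replicates 1 and 2 of their group had a correlation of 0.05. Both pairs give this 1 value by construction, so it cannot tell whether libraries were paired. With the number as a replicate block, 6512 genes were called, and Gja1 alone among the 8 tested genes changed its call (log2 fold change 1.49, adjusted p = 0.0019, edgeR). Since GL261 has replicates 1 and 2 only, the blocked estimate rests on GL261-GSCs replicates 1 and 2. Low counts limit Slc1a2, Aqp4, Aldh1l1 in GL261-GSCs, and Fabp7 and Slc1a3 in GL261.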
